A study of Homo sapiens with 24 samples.

Results

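The comparison is of gene-body signal between the S2P and the Y1P form of RNA Pol II in irradiated cells. It rests on 8 of the 24 sequencing runs of the series, namely every run of irradiated cells with either antibody. Runs of the same replicate number were summed over 2 sequencing batches to 4 of 12 libraries, 2 with S2P and 2 with Y1P, and all 21246 genes with enough counts were compared. The cells are wild-type U2OS, an established human osteosarcoma line, given 10 Gy of ionizing radiation. The labels give 10 min for the irradiation, and the Methods of the study state a longer time before harvest. In mNET-seq, chromatin is digested with micrococcal nuclease, RNA Pol II is precipitated with an antibody to a phosphorylated form of its C-terminal domain (CTD), and the short RNAs held by the enzyme are sequenced. By the labels, the irradiated and the nonirradiated S2P and Y1P groups differ only in antibody and irradiation. Nothing in the labels says that replicates were separate cultures, so each p-value reflects no more than the spread among the libraries at hand.

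The CTD is a tail of repeated heptapeptides on the largest Pol II subunit, POLR2A. Serine 2 phosphorylation (S2P), laid down by CDK9 and by CDK12 and CDK13, builds up as the polymerase moves through the gene body and helps to recruit splicing and 3' end processing factors. Tyrosine 1 phosphorylation (Y1P) is placed in human cells by kinases such as ABL1 and has been found at promoters, enhancers and antisense transcripts. The values below are not amounts of phosphorylation. They are the share of gene-body reads that a gene held in each precipitate, so a gene rises with one antibody only relative to all other genes.

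Library totals were 33144659 and 16220773 counts for S2P and 20189076 and 20118520 counts for Y1P. The S2P libraries were the deepest and the shallowest of the 12. Summed runs differed by little more than counting noise (chi-square per degree of freedom 1.06 to 1.10 over 12 pairs), whereas the replicates of a group differed far more (10.0 to 70.2). Levels are in CPM, counts scaled to the library total after TMM normalization, and log2FC is S2P over Y1P throughout. Every adjusted p is from edgeR's quasi-likelihood test with Benjamini-Hochberg adjustment over the genes tested. Unless another setting is named, the fit covers all 21246 genes and has the replicate number as a block. A gene was called at an adjusted p under 0.05 with a log2FC above 1 or below -1. Osteosarcoma and mesenchymal markers were present (12 of 13 tested, summed level 1029 and 888 CPM with S2P and 947 and 837 CPM with Y1P). Of 25 markers of other cell types 11 were tested, with summed levels of 44.95 and 39.8 CPM against 47.7 and 56.0 CPM, and 1 of the 25 was at 0 in all 4 libraries.

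Y1P and S2P gene-body signals differed for many genes, and most of the large differences were toward Y1P. With S2P, 79 genes were higher (0.372% of those tested), and with Y1P, 746 genes (3.51%). The libraries of the antibodies did not overlap for 76 of the 79 and 737 of the 746, and all of them had the same direction in both replicates. Without the limit on log2FC, the test was passed by 2522 genes higher with S2P (11.9%) and 2670 higher with Y1P (12.6%). These shares moved with the settings, to 8.39% with S2P and 16.98% with Y1P under upper-quartile scaling, to 13.6% and 8.75% after removal of a trend with gene length and to 14.01% and 7.80% after removal of a trend with GC content. Called genes were weakly expressed, with a median level of 1.21 CPM for those higher with S2P and 1.51 CPM for those higher with Y1P. Runs of batch 1 alone gave 59 and 559 genes, and those of batch 2 gave 55 and 636. The counts depended on single libraries: 29 and 288 genes were left without S2P replicate 1, 136 and 489 without S2P replicate 2, 63 and 952 without Y1P replicate 1, and 92 and 295 without Y1P replicate 2. Without the replicate block 35 and 322 genes were called. Y1P took 90.4% of the called genes, 69.4% after removal of the length trend and 78.3% after removal of the GC trend.

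**Figure D1:**
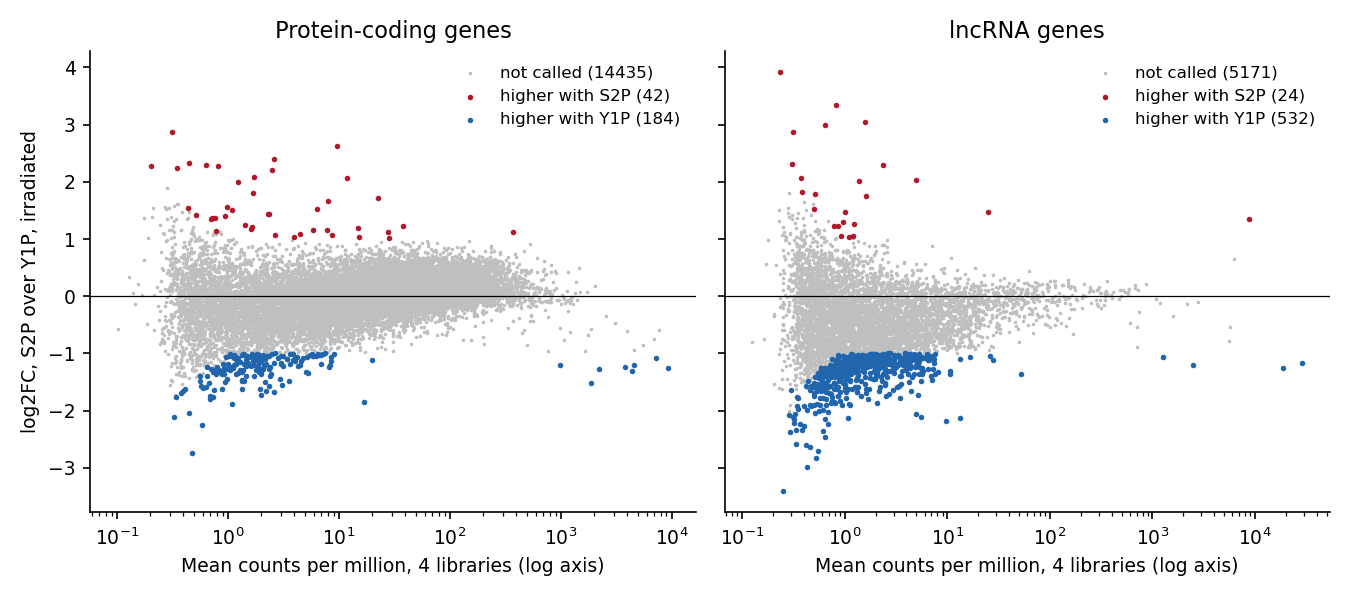
Each point is a gene, with its mean level over the 4 irradiated libraries on a log axis in CPM and its log2FC of S2P over Y1P on the vertical axis, for protein-coding genes (left) and lncRNA genes (right), with called genes in colour. Called lncRNA genes lie mostly below 0 at levels of a few CPM.

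Protein-coding genes (PCGs) and lncRNA genes differed in how many members passed in each direction, although calls lay mostly toward Y1P in both. Of 14661 PCGs, 42 were called with S2P (0.286%) and 184 with Y1P (1.26%), but at an adjusted p under 0.05 alone, 2433 were higher with S2P (16.6%) and 1272 with Y1P (8.68%). Of 5727 lncRNA genes, 24 were called with S2P (0.419%) and 532 with Y1P (9.29%), and 1304 passed the test toward Y1P (22.8%) against 48 toward S2P (0.838%). The median log2FC was 0.03 over PCGs and -0.40 over lncRNA genes, and it was -0.32 and -0.44 over lncRNA genes in replicates 1 and 2. Across the settings tried, the lncRNA median less that of all genes lay between -0.42 and -0.24. In a fit of PCGs alone, 11.7% passed toward S2P and 12.9% toward Y1P (median log2FC -0.05). The calls toward Y1P fell to 199 lncRNA genes and 82 PCGs without S2P replicate 1, and to 192 and 81 when Y1P replicate 2 was left out. They were 349 and 121 without S2P replicate 2, and 649 and 272 with Y1P replicate 1 left out. A fit with no replicate block left 237 and 75.

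Among lncRNA genes grouped by position, those that start beside a protein-coding gene on the other strand had the lowest median log2FC. Divergent transcripts, which share a promoter region with the neighbouring gene, are often short-lived. The class was set by strand and start distance alone, so it may also hold lncRNA genes that start within the PCG. Its pairs are called divergent below, whichever way the genes lie. Of 1527 lncRNA genes with a start within 1 kb of a PCG start on the other strand, 14.1% were called with Y1P and 3 genes with S2P, with a median log2FC of -0.61. Other lncRNA genes antisense to a PCG had 168 of 1660 called with Y1P (10.1%) and a median of -0.45, and those that overlap no PCG had 134 of 2365 (5.67%) and a median of -0.22. Grouped by length or GC content, lncRNA genes differed by more. Of lncRNA genes under 5 kb, 287 of 1513 were called with Y1P (18.97%, median -0.72), against 1 of 319 over 300 kb (median 0.05). Of those with a GC content over 55%, 184 of 730 were called (25.2%, median -0.82), against 4 of 530 under 37% (median 0.13). Their part in the difference between position classes was not tested.

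The lncRNA with the largest difference of those named by rule was ASH1L-AS1, at chr1:155562026-155563944 on the plus strand (hg38), antisense to the 5' end of the histone methyltransferase gene ASH1L. Its level was 3.18 and 3.69 CPM with S2P and 10.4 and 21.2 CPM with Y1P. The S2P libraries lay below both Y1P libraries, with a log2FC of -2.19 ± 0.239 (SE, n = 2 against 2, adjusted p = 7.3e-06). ASH1L itself had a log2FC of 0.27 (adjusted p = 0.042), the opposite direction. The next largest were the unnamed lncRNA genes ENSG00000270022 (log2FC -2.12), ENSG00000287190 (-2.12), ENSG00000262202 (-2.07) and ENSG00000260345 (-1.72), each with both S2P libraries below both Y1P libraries. ENSG00000262202 holds a gene for the U3 snoRNA, SNORD3D, and U3 genes are near-identical, so its reads may be split among copies.

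Divergent lncRNA genes and their protein-coding partners differed in log2FC, as all lncRNA genes and all PCGs did (medians -0.40 and 0.03). In 1440 divergent pairs in which both genes were tested, the lncRNA had the lower log2FC in 1286 (89.3%), and it was lower in both replicates in 1126. How often a lncRNA gene is the lower beside an unrelated PCG was not tested. Over the pairs the median log2FC was -0.61 for the lncRNA and 0.09 for the partner, of which 8 were called with Y1P and 2 with S2P. Among the pairs whose lncRNA was called with Y1P, which fixes the direction of the lncRNA, the partners had a median log2FC of 0.08 and 3 were called with Y1P. The levels were far apart, with a median over the pairs of 2.00 CPM for lncRNA genes and 36.3 CPM for partners.

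**Figure D2:**
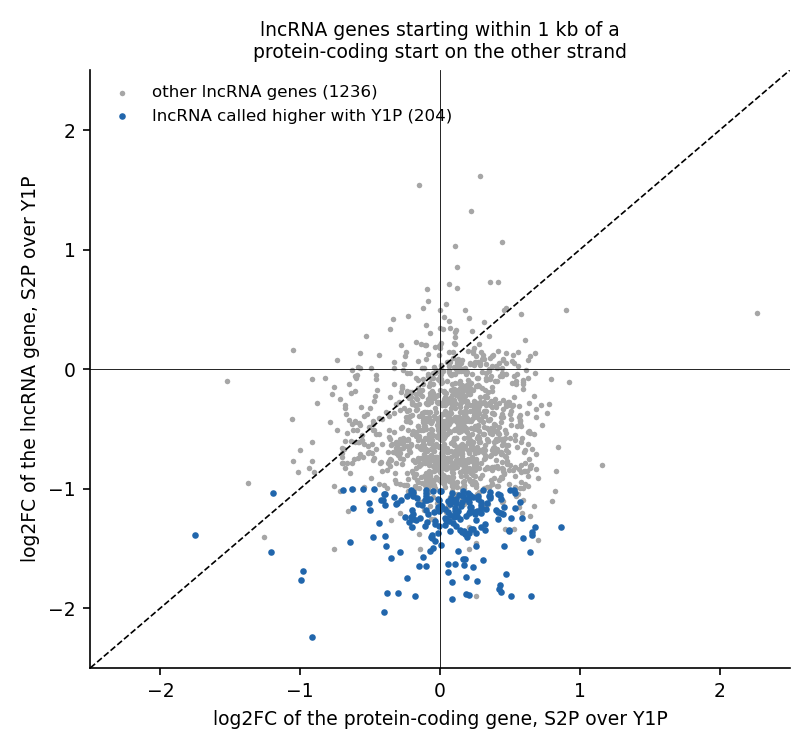
Each point is a lncRNA gene and a protein-coding gene that start within 1 kb of each other on opposite strands, with the log2FC of the partner on the horizontal axis and that of the lncRNA on the vertical axis. Of 1440 points 1286 lie below the diagonal of equal log2FC, and the pairs whose lncRNA was called with Y1P are coloured.

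WWC2-AS2 and WWC2, a pair chosen after its values were seen, show this at a single promoter. WWC2 encodes a scaffold protein of Hippo signalling, and WWC2-AS2 starts 58 bp from it on the other strand (chr4:183097017-183099199). WWC2-AS2 stood at 2.38 and 3.75 CPM with S2P and 5.98 and 9.14 CPM with Y1P (log2FC -1.36 ± 0.27, adjusted p = 0.0011). WWC2 stood at 348 and 293 CPM with S2P and 309 and 265 CPM with Y1P, which overlap (log2FC 0.16 ± 0.0838, adjusted p = 0.19). The window from 250 bases before to 50 bases after the WWC2 start (RefSeq, GRCh38.p14, chr4:183099007-183099306, plus strand) is printed because both transcripts start in it. Capitals mark its 42 CG dinucleotides.
WWC2 promoter: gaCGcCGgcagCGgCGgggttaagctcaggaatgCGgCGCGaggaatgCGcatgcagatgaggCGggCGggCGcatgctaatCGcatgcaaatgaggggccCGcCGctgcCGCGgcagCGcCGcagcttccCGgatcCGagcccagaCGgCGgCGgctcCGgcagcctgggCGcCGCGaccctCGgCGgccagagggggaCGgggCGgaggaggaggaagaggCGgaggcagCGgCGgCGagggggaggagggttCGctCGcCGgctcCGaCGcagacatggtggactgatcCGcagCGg
The median number of CG dinucleotides was 29 in 269 such windows of the partners of Y1P-called lncRNA genes, 27 in 1702 windows of all partners within 1 kb, 24 in the 17059 windows of tested PCGs and 14 in all 35116 windows. ZFAND3-DT and PPP1R12A-AS1, also chosen after their values were seen, gave the same picture: log2FC was -1.30 ± 0.204 (adjusted p = 0.00016) for ZFAND3-DT and -0.04 ± 0.102 (adjusted p = 0.81) for its partner ZFAND3. For PPP1R12A-AS1 it was -1.25 ± 0.228 (adjusted p = 0.00055), whereas its partner PPP1R12A, a myosin phosphatase subunit, rose with S2P (0.51 ± 0.0885, adjusted p = 0.00037).

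Among PCGs the antibody difference followed the number of exons in the canonical transcript. Of 277 genes with 1 exon, 100 passed the test toward Y1P (36.1%) and 2 toward S2P (0.722%). With 2 to 5 exons the shares were 17.8% toward Y1P and 1.57% toward S2P, and with 6 to 10 exons they were 7.76% and 8.60%. From there S2P led, with 24.5% toward S2P and 4.02% toward Y1P at 11 to 20 exons and 41.8% and 1.51% at 21 to 40. Of 330 genes with more than 40 exons, 168 passed toward S2P (50.9%) and 3 toward Y1P (0.909%). The median log2FC rose over these classes from -0.52 through -0.20, -0.01, 0.13 and 0.25 to 0.35, and in each class the medians of the 2 replicates lay close together.

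Genes with more exons were also more highly expressed and longer, with a median level of 2.65 CPM at 1 exon and 87.0 CPM at more than 40. At levels of 30 to 100 CPM the shares still ran the same way, with 1.798% toward S2P and 23.6% toward Y1P among 445 genes with 2 to 5 exons and 62.5% and 0.739% among 541 genes with 21 to 40 exons. At 10 to 30 CPM the share toward S2P rose from 2.35% at 2 to 5 exons to 27.6% at 11 to 20 and then stayed level, at 29.2% for 21 to 40 and 29.7% for the 37 genes with more than 40, whose median log2FC (0.15) was no higher than that at 11 to 20 exons (0.17). Over 14661 PCGs the Spearman correlation of log2FC with exon number was 0.444 in replicate 1 and 0.431 in replicate 2, and 0.344 and 0.217 in nonirradiated cells. These are descriptions across genes, which are not independent replicates. Exon number also ran with the difference between replicates of 1 antibody, at -0.336 for replicate 2 over 1 with S2P and -0.311 with Y1P. After removal of the trend with length, the median of 1-exon genes less that of all genes was -0.09, against -0.47 in the main fit.

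**Figure D3:**
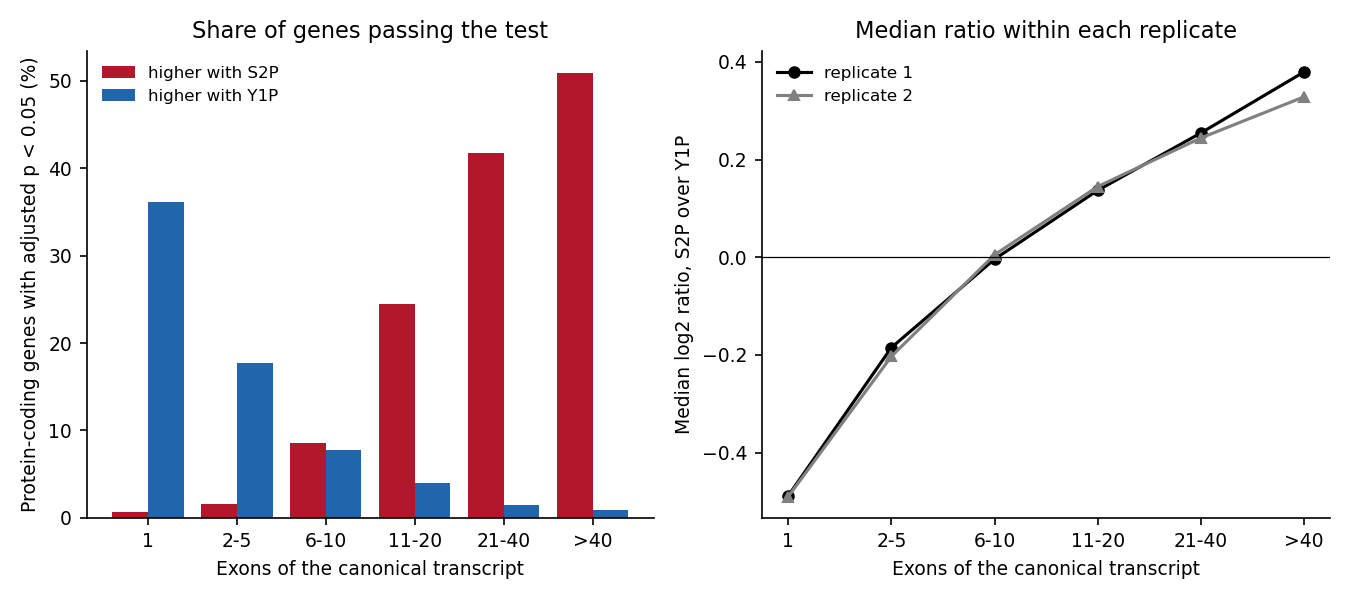
Left, bars give the percentage of PCGs in each class of exon number that passed an adjusted p of 0.05 toward S2P or toward Y1P. Right, circles and triangles give the median log2 ratio of S2P over Y1P in replicates 1 and 2. The share toward S2P rises from 0.722% to 50.9% and that toward Y1P falls from 36.1% to 0.909%.

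Mitotic genes had the highest median log2FC of the gene lists with at least 10 tested members. Of 36 tested, 30 passed the test toward S2P (83.3%) and none toward Y1P, with a median log2FC of 0.53 against -0.05 over all genes. The background was 16.6% toward S2P and 8.68% toward Y1P over PCGs of any level, and 30.4% and 5.58% over PCGs at 30 to 100 CPM, the range of the list's median level (83.3 CPM). At that level the share toward S2P was 13.2% at 6 to 10 exons, 38.7% at 11 to 20 and 62.5% at 21 to 40. The list of mitotic genes was not matched for exon number, and TOP2A has 35 exons, BUB1 25 and TTK 22. The 6 mitotic genes that did not pass were CENPA, MAD2L1, AURKA, CDC25C, BIRC5 and BUB3. TOP2A, the topoisomerase that untangles sister chromatids (chr17:40388525-40417896, minus strand), was the only one called, with 519 and 507 CPM with S2P and 237 in each Y1P library. Both S2P libraries lay well above both Y1P libraries, a 2.16-fold difference (log2FC 1.11 ± 0.0949, adjusted p = 7.2e-07). The spindle checkpoint kinase BUB1 followed at 181 and 166 CPM against 96.1 and 94.8 CPM (log2FC 0.87 ± 0.0967, adjusted p = 9.4e-06). TTK, another spindle checkpoint kinase, stood at 62.9 and 57.2 CPM against 34.4 and 35.4 CPM (log2FC 0.78 ± 0.0975, adjusted p = 2.1e-05). The number passing ranged from 22 without the replicate block to 31 across settings. The median of the list in nonirradiated cells was 0.38.

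Many promoters of mitotic genes are known to carry CCAAT boxes, bound by NF-Y, and the cell cycle homology region (CHR), bound by MuvB complexes. Of 39 promoter windows of 30 mitotic genes, 30 held CCAAT on either strand (76.9%) and 24 held the CHR letters TTTGAA on either strand (61.5%). Of all 35116 windows 34.6% held CCAAT and 15.2% TTTGAA, and of the 17059 windows of tested PCGs 34.2% and 10.9%. The letters do not overlap and a match is not a bound site. The windows of the mitotic genes with the smallest p that have one are printed to show this, minus strand, with each match to CCAAT or TTTGAA, as read on either strand, in capitals. TOP2A lies at chr17:40417847-40418146 and holds 4 CCAAT and 2 TTTGAA matches, and BUB1 lies at chr2:110678014-110678313 and holds 2 CCAAT matches and no TTTGAA match.
TOP2A promoter: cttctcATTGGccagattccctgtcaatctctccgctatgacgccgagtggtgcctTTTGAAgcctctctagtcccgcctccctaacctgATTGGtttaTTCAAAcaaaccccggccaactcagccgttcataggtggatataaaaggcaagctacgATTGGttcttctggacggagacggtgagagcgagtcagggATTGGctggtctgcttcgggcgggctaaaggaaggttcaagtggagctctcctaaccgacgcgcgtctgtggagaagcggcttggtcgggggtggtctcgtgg
BUB1 promoter: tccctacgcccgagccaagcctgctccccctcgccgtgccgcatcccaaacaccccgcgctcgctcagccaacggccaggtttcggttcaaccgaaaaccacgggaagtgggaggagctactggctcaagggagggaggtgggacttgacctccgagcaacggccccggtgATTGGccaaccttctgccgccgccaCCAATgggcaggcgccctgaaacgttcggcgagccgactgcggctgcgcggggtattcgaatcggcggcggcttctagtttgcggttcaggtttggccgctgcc

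Lists of transcription machinery genes differed in the share that passed toward S2P. Of 28 tested genes for pausing, elongation and the 7SK complex, 15 passed toward S2P (53.6%) and 1 toward Y1P (3.57%), with a median log2FC of 0.27. Of 32 genes for cleavage, polyadenylation and termination, 20 passed toward S2P (62.5%) and 1 toward Y1P (median 0.28). Of 13 Pol II subunit genes 4 passed toward S2P (30.8%) and 1 toward Y1P (7.69%), and of 27 genes for CTD kinases, their cyclins and CTD phosphatases 6 (22.2%) and 1 (3.70%). Over PCGs of any level the shares were 16.6% toward S2P and 8.68% toward Y1P. At 10 to 30 CPM, the range of the subunits' median level (16.3 CPM), they were 14.8% and 11.1%. At 30 to 100 CPM, the range of the median levels of the other lists named here, they were 30.4% and 5.58%. Exon number was not matched. POLR2A stood at 259 and 252 CPM with S2P and 175 and 169 CPM with Y1P (log2FC 0.57 ± 0.0829, adjusted p = 7.9e-05). CDK9, the kinase subunit of P-TEFb, was the highest of its list at 38.5 and 41.0 CPM against 21.3 and 22.7 CPM (log2FC 0.85 ± 0.115, adjusted p = 4.2e-05). In both genes the antibodies did not overlap. Without S2P replicate 1 the numbers passing toward S2P fell to 6 of the pausing list, 8 of the cleavage list, 2 of the subunits and 3 of the CTD list. Without Y1P replicate 2 they were 10, 10, 2 and 4. Dropping the replicate block gave 9, 10, 2 and 2. The subunits also had 2 without either of the other libraries. The medians stayed above 0 in each of these settings.

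Further members ran the same way. The Polo-like kinase gene PLK3, also a p53 target, had a log2FC of 0.80 ± 0.0959 (adjusted p = 1.6e-05). The elongation factors SUPT6H (0.59 ± 0.0837, adjusted p = 6.4e-05), RTF1 (0.63) and the NELF subunit NELFCD (0.64 ± 0.103, adjusted p = 0.00019) rose, as did POLR2B (0.61), the second largest Pol II subunit. Of the 3' end factors, the Integrator endonuclease INTS11 stood at 0.83 ± 0.101 (adjusted p = 1.7e-05), the cleavage factor subunit CPSF1 at 0.71 ± 0.0894 (adjusted p = 2.3e-05) and the poly(A) polymerase PAPOLG at 0.75. The members that rose with Y1P were SSU72, a phosphatase of the CTD (-0.44 ± 0.0858, adjusted p = 0.001), the Pol II subunit POLR2J (-0.63 ± 0.189, adjusted p = 0.02), the P-TEFb inhibitor HEXIM1 (-0.70 ± 0.216, adjusted p = 0.022) and NUDT21, a cleavage factor subunit at under 1 CPM in every library (-1.63 ± 0.551, adjusted p = 0.035). None of these 4 passed without S2P replicate 1 (adjusted p = 0.11 for SSU72 and 0.19 for POLR2J) or in a fit with no replicate block. POLR2J has near-identical copies, among which reads may be split. Of 20 SR protein and CLK kinase genes 9 passed toward S2P (45%) and none toward Y1P (median 0.30), but 1 without Y1P replicate 1, 5 without either S2P replicate and 2 without the replicate block. Of PCGs at 30 to 100 CPM, the range of that list's median level (75.8 CPM), 30.4% passed toward S2P and 5.58% toward Y1P. The smallest p of the list were those of the splicing kinase CLK2 (0.50) and the splicing factor SRSF7 (0.52).

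Of 34 double-strand break repair genes 18 passed toward S2P (52.9%) and 1 toward Y1P (2.94%), with a median log2FC of 0.26. Of PCGs at 30 to 100 CPM, 30.4% and 5.58% passed. At that level the share toward S2P was 13.2% at 6 to 10 exons, 38.7% at 11 to 20 and 62.5% at 21 to 40. The list was not matched for exon number. The 18 fell to 6 without S2P replicate 1, 11 without Y1P replicate 1, 7 without Y1P replicate 2 and 8 without the replicate block. The damage kinase ATM stood at 358 and 306 CPM with S2P and 227 and 205 CPM with Y1P (log2FC 0.62 ± 0.0909, adjusted p = 8.8e-05), PARP1, the strand break sensor, at 0.53 and the recombination motor RAD54L at 0.44. XRCC3, a homologous recombination gene, went the other way (-0.32 ± 0.0969, adjusted p = 0.022). The list of p53 target genes, also not matched for exon number, had a median level of 37.7 CPM, in the same range. Of its 29 tested genes 4 passed toward S2P (13.8%, against 30.4% of PCGs at 30 to 100 CPM). Toward Y1P 6 passed (20.7%, against 5.58%), and the median log2FC was 0.06. The counts were 1 and 0 without S2P replicate 1, 3 and 1 without S2P replicate 2, 2 and 3 without either Y1P replicate, and 1 and 1 without the replicate block. BBC3, which encodes the apoptosis inducer PUMA, stood at 31.5 and 36.2 CPM with S2P and 46.0 and 50.9 CPM with Y1P (log2FC -0.52 ± 0.111, adjusted p = 0.0019). CDKN1A, the cell cycle inhibitor p21, was also higher with Y1P (-0.42 ± 0.111, adjusted p = 0.0094), as was RPS27L (-0.45), whereas MDM2, the ubiquitin ligase of p53, was higher with S2P (0.29, adjusted p = 0.022).

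Immediate early genes, which respond within minutes to stimuli, had a median log2FC of -0.26. Of 29 tested, 9 passed toward Y1P (31.0%, against 8.68% of PCGs) and 1 toward S2P (3.45%, against 16.6%). This did not hold across settings. Removal of the length trend gave 4 toward Y1P and 6 toward S2P (median -0.03) and removal of the GC trend 2 and 4. The 9 toward Y1P fell to 2 without S2P replicate 1 or Y1P replicate 2, to 3 without S2P replicate 2 and to 0 without the replicate block. The nuclear receptor gene NR4A2 stood at 28.7 and 22.5 CPM with S2P and 42.1 and 39.96 CPM with Y1P, without overlap (log2FC -0.70 ± 0.118, adjusted p = 0.00027). IER2 had a log2FC of -0.58 and NR4A1 of -0.46. FOS was the member higher with S2P (0.33 ± 0.0909, adjusted p = 0.011), whereas JUNB was higher with Y1P (-0.51, adjusted p = 0.0098).

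Other lists varied. Of 31 extracellular matrix and collagen genes 15 passed toward S2P (48.4%) and none toward Y1P (median log2FC 0.35). COL3A1 stood at 0.73, COL7A1 at 0.68 and COL5A2 at 0.60, all genes of many exons. Median levels were 72.0 CPM for this list, 33.6 CPM for the chaperone list and 65.5 CPM for the PRC2 list. At 30 to 100 CPM, the range of all these, 30.4% of PCGs passed toward S2P. That share was 13.2% at 6 to 10 exons, 38.7% at 11 to 20, 62.5% at 21 to 40 and 63.2% above 40. These lists were not matched for exon number. The 15 fell to 5 without S2P replicate 1 and to 8 without Y1P replicate 2, and a fit with no replicate block left 5. Of 37 DNA replication and G1/S genes 13 passed toward S2P (35.1%, near the 30.4% of PCGs at 30 to 100 CPM) and 1 toward Y1P (median 0.19). The smallest p were those of the clamp loader subunit RFC1 (0.55), MCM10 (0.50) and POLE (0.45). The 13 fell to 8 and 7 without Y1P replicate 1 or 2 and to 6 without the block. Of 23 heat shock and chaperone genes 10 passed toward S2P (43.5%) and 2 toward Y1P (8.70%), with a median of 0.19, but 5 and 1 without S2P replicate 1, 6 and 1 without Y1P replicate 2, and 1 and 0 without the block. The endoplasmic reticulum chaperone HSPA5 rose with S2P (0.63 ± 0.0838, adjusted p = 3.8e-05). HSPA8, which holds snoRNA genes, rose with Y1P (-0.61, adjusted p = 0.001). Nuclear genes of oxidative phosphorylation stood near the background of PCGs, with 10 of 61 toward S2P (16.4%, against 16.6%) and 6 toward Y1P (9.84%, against 8.68%). Of 21 microRNA host lncRNA genes 3 passed toward Y1P (14.3%, against 22.8% of lncRNA genes) and none toward S2P (median -0.17). Of the osteosarcoma and mesenchymal markers COL1A1 (0.54) and VIM (0.32) passed toward S2P and ALPL (-0.74) toward Y1P, and of the markers of other cell types EPCAM (-0.51) and PMEL (-0.98) passed toward Y1P. Of 12 PRC2 genes 6 passed toward S2P (50%, median 0.23), among them MTF2 (0.51) and EZH1 (0.53), but 3 without S2P replicate 1, without either Y1P replicate or without the block. Of genes that the study tested by PCR or knocked down, the deubiquitinase gene USP34 (0.40 ± 0.0979, adjusted p = 0.0049), the PRC2 methyltransferase gene EZH2 (0.26 ± 0.0812, adjusted p = 0.023) and PPP4R2 (0.23, adjusted p = 0.039) passed toward S2P. ASXL1 (0.22, adjusted p = 0.073) did not pass. USP34 and EZH2 did not pass without S2P replicate 1 (adjusted p = 0.17 and 0.18).

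**Figure D4:**
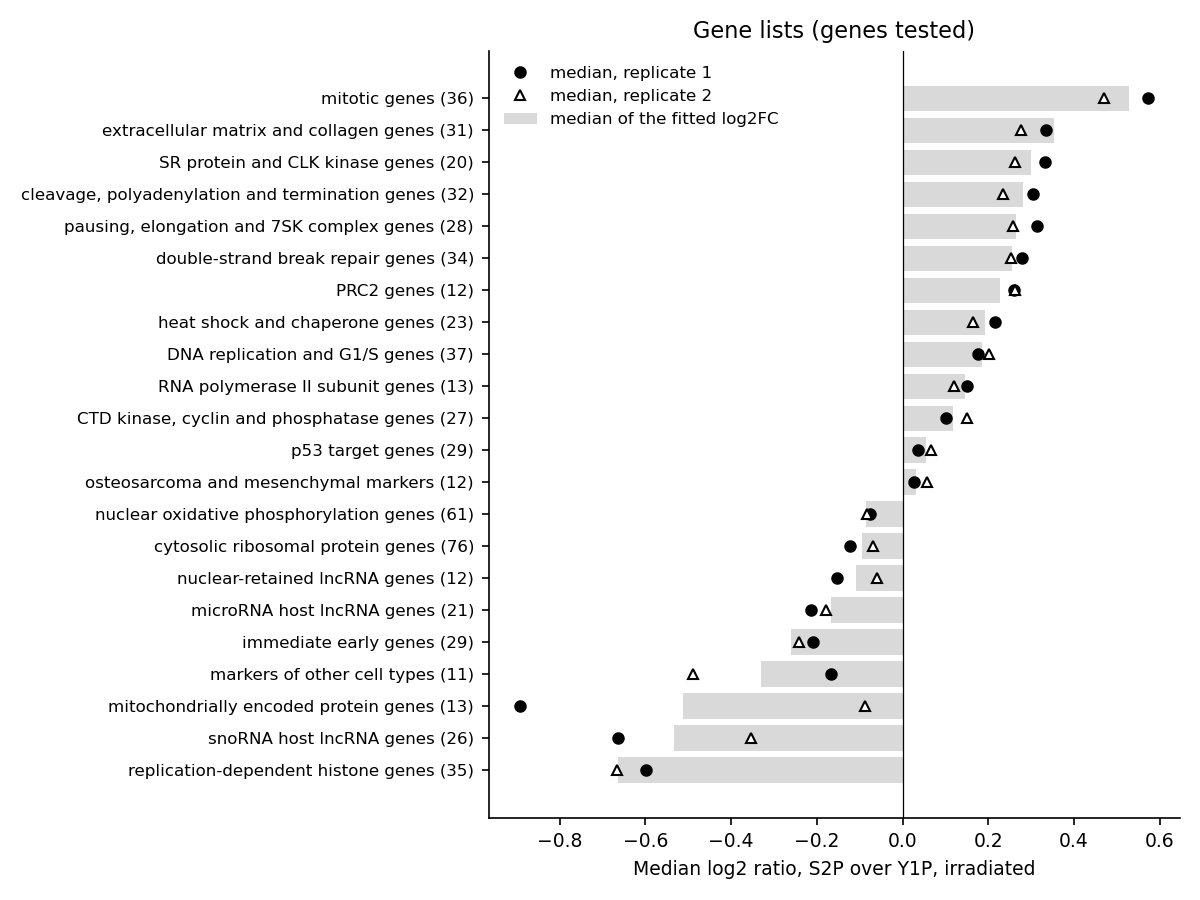
Bars give the median log2FC of S2P over Y1P for each gene list with at least 10 tested members, and circles and triangles the medians of the log2 ratio in replicates 1 and 2. Mitotic genes lie highest, at 0.53, and replication-dependent histone genes lowest, at -0.66.

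Replication-dependent histone genes, which are short, have no introns and end in a stem-loop instead of a poly(A) tail, had the lowest median of the lists with at least 10 tested members. Of 35 tested, 26 passed toward Y1P (74.3%) and none toward S2P, with a median log2FC of -0.66. Of PCGs with 1 exon 36.1% passed toward Y1P (median -0.52), and of all PCGs 8.68%. H3C1, for histone H3 (chr6:26020451-26020958), stood at 11.6 and 21.8 CPM with S2P and 19.3 and 42.9 CPM with Y1P. The groups overlapped, and the replicates of an antibody differed about as much as the antibodies, but in each replicate S2P was the lower (log2FC -0.88 ± 0.128, adjusted p = 8.1e-05). H3C2 (-0.71) and H2BC21 (-0.76) did not overlap, though H3C2 turned to 0.010 after removal of the length trend, and H4C11 and H2AC4 were called. The 26 fell to 10 without S2P replicate 1, 17 without S2P replicate 2 and 16 without Y1P replicate 2. Without the replicate block no member passed, and after removal of the length trend 7 passed toward Y1P and 2 toward S2P (median less that of all genes -0.01). Histone genes of a family are near-identical, and uniquely mapped reads may be split or lost among them.

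Some strongly expressed genes with snoRNA genes inside them were much lower with S2P, whereas most such genes were not. Box C/D snoRNAs guide methylation of ribosomal RNA and are trimmed from the spliced intron of a host gene, and they are abundant in the nucleus. Genes with a snoRNA inside took 14.1% and 21.6% of gene-body counts with S2P and 24.1% and 28.1% with Y1P, so S2P replicate 1 stood apart. Of 209 genes over 100 CPM that hold a snoRNA, 13 were called with Y1P (6.22%) and none with S2P, against none and 2 (0.106%) of 1891 genes of that level without one. At an adjusted p under 0.05 alone, 46 of the 209 passed toward Y1P (22.0%) and 58 toward S2P (27.8%), with a median log2FC of 0.06, against 2.38%, 35.6% and 0.15 for the 1891. Of all 635 genes with a snoRNA inside, 92 passed toward Y1P and 113 toward S2P (median 0.01). Of 26 snoRNA host lncRNA genes 15 passed toward Y1P (57.7%, against 22.8% of lncRNA genes) and 1 toward S2P (median log2FC -0.53). The 15 fell to 8 without S2P replicate 1 and to 2 without the replicate block. The share of reads that came from the snoRNAs themselves was not tested, because the counts are per gene.

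The host genes that the results turn on included several for ribosomal proteins. RPL13 stood at 831 and 1908 CPM with S2P and 2728 and 3349.6 CPM with Y1P (log2FC -1.28 ± 0.153, adjusted p = 1.6e-05). RPL3 stood at 3586 and 8130.2 CPM with S2P and 11343 and 14128 CPM with Y1P (log2FC -1.25 ± 0.168, adjusted p = 4.1e-05). RPS12 stood at 1543 and 3891 CPM against 5645 and 6342 CPM (log2FC -1.31 ± 0.196, adjusted p = 0.0001). In all 3 genes the antibodies did not overlap and S2P replicate 1 was the lowest library. Without that library the log2FC was -1.05, -1.08 and -1.04, all still past an adjusted p of 0.05, and without the replicate block none passed (adjusted p = 0.13, 0.18 and 0.18).

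The same held for hosts of other functions. ATP5F1B, the beta subunit of mitochondrial ATP synthase, stood at 384 and 903 CPM against 1241 and 1410.2 CPM (log2FC -1.21 ± 0.22, adjusted p = 0.00056), and GNL3, the nucleolar GTPase nucleostemin, had a log2FC of -1.24 (adjusted p = 4.8e-05). ZFAS1, a lncRNA host, stood at 1092 and 2069.6 CPM against 3421 and 3333 CPM (log2FC -1.20 ± 0.195, adjusted p = 0.00021), and SNHG19 at 605 and 1119.7 CPM against 1762 and 1603 CPM (log2FC -1.07 ± 0.162, adjusted p = 0.00012). SNHG1, chosen after its values were seen for its many counts, held 1.09% and 3.10% of counts with S2P and 3.45% and 4.47% with Y1P. Of 76 ribosomal protein genes 19 passed toward Y1P (25%, against 8.68% of PCGs) and 6 toward S2P (7.89%, against 16.6%), with a median of -0.09. The 19 fell to 5 without S2P replicate 1 and to 10 without Y1P replicate 2. A fit with no replicate block left 0, and removal of the length trend gave 13 toward Y1P and 21 toward S2P (median 0.09). The 4 called all hold snoRNA genes (RPL13, RPL3, RPS12 and RPL21).

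One snoRNA of each of 6 hosts is printed from the hg38 genome to show what such introns hold, with the box C letters TGATGA near the 5' end and the box D letters CTGA near the 3' end in capitals. Of 313 SNORD genes, 205 held TGATGA in the first 20 bases (65.5%), 273 held CTGA in the last 15 (87.2%) and 194 held both (62.0%). They lie at chr16:89561434-89561517 (plus) in RPL13, chr22:39319050-39319113 (minus) in RPL3, chr6:132816802-132816877 (plus) in RPS12, chr12:56645027-56645101 (minus) in ATP5F1B, chr20:49280683-49280772 (plus) in ZFAS1 and chr16:2155023-2155105 (minus) in SNHG19.
SNORD68 in RPL13: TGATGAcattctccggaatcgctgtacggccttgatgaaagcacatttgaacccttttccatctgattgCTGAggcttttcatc
SNORD43 in RPL3: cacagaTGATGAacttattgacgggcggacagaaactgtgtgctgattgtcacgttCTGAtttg
SNORD100 in RPS12: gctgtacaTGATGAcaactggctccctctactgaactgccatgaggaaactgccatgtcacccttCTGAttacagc
SNORD59A in ATP5F1B: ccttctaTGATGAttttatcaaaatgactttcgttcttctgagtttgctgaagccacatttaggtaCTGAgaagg
SNORD12 in ZFAS1: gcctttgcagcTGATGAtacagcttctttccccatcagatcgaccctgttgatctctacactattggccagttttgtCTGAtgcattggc
SNORD60 in SNHG19: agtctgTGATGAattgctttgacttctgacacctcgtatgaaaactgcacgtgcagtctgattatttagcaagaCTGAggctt

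SNORD3B-2, a gene for the U3 snoRNA of ribosomal RNA processing (chr17:19063346-19064136, minus strand), stood at 7.35 and 12.3 CPM with S2P and 31.5 and 55.8 CPM with Y1P. The libraries did not overlap, a 4.41-fold difference (log2FC -2.14 ± 0.127, adjusted p = 2e-09). U3 has several near-identical genes, so its reads may be split or lost. RN7SL1, the RNA of the signal recognition particle and a transcript of Pol III, stood at 27.1 and 72.7 CPM against 91.8 and 105 CPM (log2FC -1.11), and RN7SL3 had a log2FC of -1.44. These were the 2 tested of 15 listed Pol III transcripts. Of 13 mitochondrially encoded protein genes, which Pol II does not transcribe, 8 passed toward Y1P (61.5%) and none toward S2P. Of PCGs with 1 exon 36.1% passed toward Y1P, and of all genes 12.6%. The median log2FC of the 13 mitochondrial genes was -0.51. Their median ratio was -0.89 in replicate 1 and -0.09 in replicate 2. None passed toward Y1P without S2P replicate 1, without Y1P replicate 1 or without the replicate block, and after removal of the length trend the median turned to 0.14. MT-ND5 stood at 89.4 and 149 CPM with S2P and 214.9 and 175 CPM with Y1P (log2FC -0.76 ± 0.161, adjusted p = 0.0018), and it did not pass without S2P replicate 1 (adjusted p = 0.14) or without Y1P replicate 1 (adjusted p = 0.084).

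The gene with the most reads among those called with S2P is annotated as a lncRNA gene. Whether its reads came from a small nuclear RNA gene inside it was not tested, because the counts are per gene. ENSG00000285646, which has no symbol, at chr1:11907940-11914298 on the plus strand, stood at 11993 and 13185 CPM with S2P and 5405 and 4520.5 CPM with Y1P, without overlap (log2FC 1.35 ± 0.135, adjusted p = 2.9e-06). MALAT1, a nuclear lncRNA, was higher with S2P as well, at 8543 and 6799 CPM against 4933 and 4875 CPM (log2FC 0.65 ± 0.152, adjusted p = 0.004), though not without S2P replicate 1 (0.45, adjusted p = 0.18). The list of nuclear-retained lncRNA genes had a median level of 302 CPM. Of its 12 tested genes MALAT1 alone passed toward S2P (8.33%, against 5.66% of lncRNA genes over 100 CPM). Toward Y1P 3 passed (25%, against 17.9%). NEAT1, the RNA of paraspeckles, stood the other way at 1357 and 1439 CPM against 1874 and 1707 CPM (log2FC -0.35 ± 0.106, adjusted p = 0.019).

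Among PCGs called with S2P, 2 patterns stood side by side. SUPT7L, a subunit of the SAGA coactivator, stood at 60.9 and 46.9 CPM with S2P and 23.4 and 22.2 CPM with Y1P (log2FC 1.23 ± 0.103, adjusted p = 7.2e-07). ALYREF, an mRNA export adaptor, stood at 38.3 and 38.2 CPM against 17.5 and 17.7 CPM (log2FC 1.11 ± 0.112, adjusted p = 2.9e-06). ARF5 (1.66 ± 0.19, adjusted p = 1.1e-05), the transcription factor gene USF1 (1.16 ± 0.185, adjusted p = 0.00018) and the pseudogene NSUN5P2 (1.36 ± 0.124, adjusted p = 9.9e-07) were likewise similar in both S2P libraries. In contrast, TP63, a p53 family transcription factor, stood at 27.5 and 6.30 CPM with S2P and 2.99 and 1.98 CPM with Y1P (log2FC 2.62 ± 0.234, adjusted p = 8.8e-07). RBM46 stood at 34.0 and 5.59 CPM against 4.56 and 3.44 CPM (log2FC 2.06 ± 0.333, adjusted p = 0.0002), and RUBCNL at 48.2 and 21.8 CPM against 12.96 and 7.82 CPM (log2FC 1.71 ± 0.167, adjusted p = 2.2e-06). These 3 genes were much higher in S2P replicate 1 than in the other 3 libraries. Without it TP63 had a log2FC of 2.12 (adjusted p = 0.00011), RUBCNL of 1.66 and RBM46 of 1.23, the last no longer past the threshold (adjusted p = 0.052).

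Of PCGs called with Y1P that hold no snoRNA, TOB1, an antiproliferative gene (chr17:50862223-50867978), had the largest log2FC of those named by rule. It stood at 6.64 and 7.55 CPM with S2P and 18.6 and 34.8 CPM with Y1P, without overlap and with S2P 3.60-fold lower (log2FC -1.85 ± 0.162, adjusted p = 8.8e-07). The phosphatase gene PTP4A1 stood at 2.35 and 3.69 CPM against 6.55 and 8.48 CPM (log2FC -1.35). The lysosomal disease gene CLN6 (-1.33), ENSG00000288564 (-1.24), which has no symbol, and the tight junction gene CLDN4 (-1.21) followed. CLN6 and CLDN4 were below 10 CPM in all 4 libraries, and ENSG00000288564 stood at 3.84 and 5.94 CPM against 8.55 and 14.7 CPM.

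**Figure D5:**
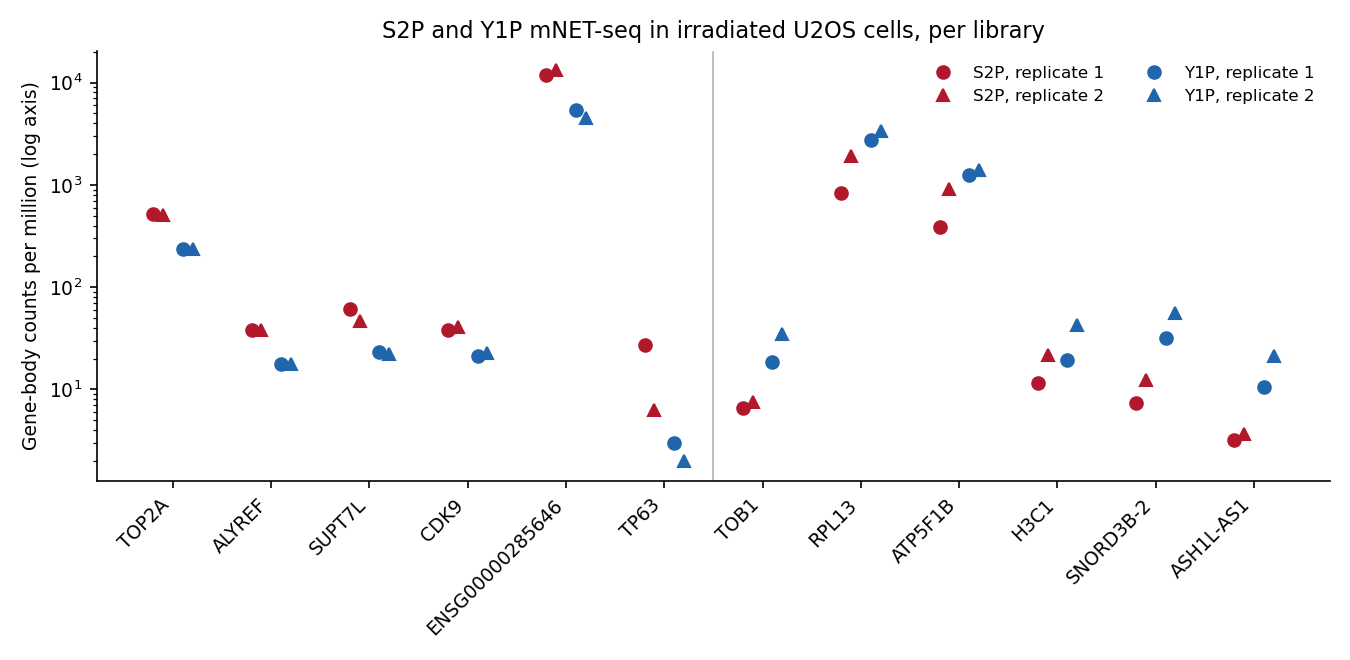
Each point is the level of 1 gene in 1 irradiated library, in CPM on a log axis, with S2P and Y1P in separate colours and the replicates as separate symbols. The 6 genes on the left are higher with S2P and the 6 on the right higher with Y1P. The libraries of the antibodies overlap for H3C1 alone.

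Without irradiation the same antibodies, in libraries that share no sample with the irradiated ones, differed at fewer genes, 14 higher with S2P (0.0659%) and 217 higher with Y1P (1.02%). Of these, 7 and 112 were also called in irradiated cells, which is 8.86% of the irradiated and 50% of the nonirradiated calls for S2P and 15.01% and 51.6% for Y1P. Of the irradiated calls, 63 of 79 and 712 of 746 had the same sign without irradiation. Their median log2FC was 1.48 and -1.24 in irradiated cells, the values that chose them, and 0.47 and -0.75 without irradiation. TOP2A had a log2FC of 0.83 (adjusted p = 0.00013) without irradiation, SUPT7L of 0.74, SNORD3B-2 of -1.36 (adjusted p = 1.8e-05), TOB1 of -1.30 and ASH1L-AS1 of -2.26 (adjusted p = 0.00029).

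No gene passed a test of the difference between the irradiated and the nonirradiated S2P over Y1P ratio (edgeR's quasi-likelihood test), and 883 genes had an unadjusted p under 0.05 (4.16%). DESeq2 called 1 gene on the libraries and 30 on the runs, a fit that counts repeat runs of a library as replicates, and edgeR called 25 with no filter on low counts. For TP63 the difference was 2.01 ± 0.344 (adjusted p = 0.17) and for SNORD3B-2 -0.79 ± 0.181 (adjusted p = 1). The fewer calls without irradiation are therefore not shown to be a smaller difference. Across the 21246 genes the log2FC in irradiated and nonirradiated cells had a Pearson correlation of 0.559, a description over genes of unequal depth.

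S5P, the third form assayed in irradiated cells, gave 3 genes higher than with Y1P (0.0141%) and 53 lower (0.249%). Against S2P it gave 6 higher (0.0282%) and 12 lower (0.0565%). These comparisons share the Y1P or S2P libraries with the one above. TOP2A stood at 312 and 377 CPM with S5P, between Y1P and S2P, and SNORD3B-2 at 18.02 and 31.0 CPM, again between them. ENSG00000285646 had a log2FC of 1.03 for S5P over Y1P (adjusted p = 0.0018) and of -0.31 for S5P over S2P (adjusted p = 0.29).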

How the data were processed

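mNET-seq reads were processed by the authors, who trimmed adapters with cutadapt (version 1.8.3 in the submitters' notes), aligned them to hg38 with STAR, kept unique reads with SAMtools, removed internal priming and PCR duplicates and counted by strand with featureCounts. The deposited values are raw counts per gene body, from 200 bp past the start site to the end. The annotation release is not given in the sources used here. Names, classes and exon numbers (Ensembl canonical transcript) were taken from GENCODE 44 by ID; 78 IDs without a match hold 0.0116% of counts. Of 55399 entries 1022 empty repeats were dropped, and 42 IDs were merged.

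Runs of a library were summed. Genes were kept by filterByExpr and scaled by TMM, and 12 libraries were fitted by edgeR 4.0.16 in R 4.3.3 (quasi-likelihood, a term per group and 1 replicate block shared by the antibodies, 5 residual and 16.1 prior degrees of freedom), with Benjamini-Hochberg adjustment. The SE is the log2FC over the square root of F. DESeq2 1.42.0 was an alternative, limma 3.58.1 was loaded by edgeR, and tables were made in Python 3.11.15 with pandas 2.3.3 and SciPy 1.17.1. On simulated counts of 21246 genes for this comparison, 100 of 100 genes at a log2FC of 1.5 and 100 of 100 at 2 were recovered, with 4 false calls. The changed genes all had an expected mean of at least 100 counts, and the simulation had 1 fixed dispersion and no replicate effect. Recovery at the low levels of most called genes, and false calls under the spread of the real replicates, were not tested. The pairing was checked on the difference of replicate 2 and 1 in 15 pairs of groups (Pearson 0.156 to 0.367); whether a number stands for 1 culture across antibodies is not given by the labels.

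Genes named are the called genes with a mean of at least 100 counts, the same direction in both replicates and the largest log2FC (10 protein-coding, 5 lncRNA and 3 other genes in each direction), 3 genes of smallest p in each of 24 lists, the genes tested in the study and POLR2A. Members and lists were chosen with earlier results of these data known. FOS, JUNB, MDM2, CDKN1A, HEXIM1, NUDT21, XRCC3, HSPA8, ASH1L, H4C11, H2AC4 and the mitotic genes that did not pass were named outside the rule after their values were seen, as were the divergent pairs and SNHG1. Some items are not reported here.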

Additional observations from a re-analysis of the deposited data

How the results depend on the processing

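Of the counts of genes under the alternatives, 42 stayed within 1.5 times the value reported and 25 moved. Of the medians of gene groups, 367 moved by more than the spread between replicates and 895 did not. Of the values of named genes, 1834 kept their direction and side of the threshold, 149 no longer passed, 12 newly passed and 1 turned. The counts of genes higher with S2P and with Y1P (79 and 746) became 20 and 223 with a mean of at least 50 counts, 39 and 303 with DESeq2 on the libraries, 31 and 259 in protein-coding genes alone, 152 and 345 without the length trend, 2522 and 2670 at a log2FC limit of 0.1, and 2 and 5 with glmTreat against a log2FC of 1. The Y1P count fell to 419 without the GC trend. Leaving out a replicate gave 29 to 136 and 288 to 952. Genes whose S2P over Y1P difference differed with irradiation numbered 0, against 25 with no filter, 1 with DESeq2 on the libraries, 30 with DESeq2 on single runs with batch as a term (repeat runs of a library count there as replicates), and 0 to 3 with a replicate left out. Fewer genes are tested under the stricter filter and in protein-coding genes alone; the other causes were not tested.

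With no replicate block, 35 and 322 genes were called. Differences of replicate 2 and 1 ran together weakly in all 15 pairs of groups (Pearson 0.156 to 0.367). In irradiated cells they also ran with gene length (Spearman -0.324 with S2P and -0.312 with Y1P). Whether a replicate number pairs libraries across antibodies was not tested apart from such trends.

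H3C2 turned to 0.010 without the length trend.

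With 2 libraries a group, and a lone sample assumed to vary like the other groups when one is left out, small differences at a few CPM cannot be resolved.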
